A study of Mus musculus with 8 samples.

Results

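The genes described here are the factors that start, extend and end protein synthesis, together with the aminoacyl-tRNA synthetases, in the mouse extensor digitorum longus (EDL), a fast muscle of the lower leg, after 4 h of nerve-driven contraction. Members were chosen by gene symbol alone, as symbols that begin with Eif, Eef or Gspt, the symbol Etf1, and the 1-letter synthetase names such as Hars. The rule found 37 probes, each for a different gene, among 6370 named genes of the array, and all 37 had values on all 8 arrays and were tested. The study compared EDL muscles whose sciatic nerve was stimulated for 4 h with the unstimulated EDL of the opposite leg, 4 muscles in each group, from male Swiss Webster mice numbered 183, 197, 438 and 440. The control therefore shares the animal and its circulation with the stimulated muscle. The titles call it unstimulated and do not say whether its nerve was also exposed. The animals' age was not given in the sources used here. RNA was hybridised to 1-colour CodeLink arrays, and the deposited values are linear intensities that the authors had already normalized.

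Initiation factors load the small ribosomal subunit with the initiator tRNA, bring it to the capped end of the mRNA and release it at the start codon. Initiation is held back when kinases phosphorylate the factor eIF2, or when 4E-binding proteins sequester the cap-binding protein eIF4E. Elongation factors deliver aminoacyl-tRNAs and move the ribosome along, release factors end the chain, and each synthetase joins an amino acid to its tRNA. In contracting muscle, protein synthesis is known to slow, in part through phosphorylation of these factors, which a transcript array does not measure.

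No translation gene passed the test for a change with stimulation. In simulated data, with changes placed in probes drawn at random, this test recovered 1.27% of 1.5-fold, 17.5% of 2-fold and 87.3% of 4-fold changes. A gene that did not pass may therefore still have changed. The recovery at the members' own brightness was not computed. With limma and mouse as a block, 0 of 37 members passed an adjusted p of 0.05, where 1.34% of 10406 tested probes did, and the members' adjusted p ranged from 0.173 to 0.99. At unadjusted p under 0.05 there was 1 member higher, the eIF3 subunit Eif3a, against 6.74% of all probes, and 4 lower, Sars2, Eef1akmt1, Eef1d and Hars, against 8.49% of all probes. The members' median log2 change (stimulated minus contralateral) was -0.11, beside -0.14 for all tested probes. After cyclic loess, which centres the arrays on each other, the median of all probes was -0.01 by construction and that of the members -0.04. The cause of the shift in the deposited values was not tested. On the deposited scale 22 members lay above the median of all probes and 15 below. The position of the members' median depended on the setting. After quantile normalization it was -0.11, beside -0.06 for all probes. Without the dimmest 50% of probes it was -0.13 beside -0.09, and without mouse 440 it was -0.14 beside -0.08. Without mouse 183, 197 or 438 in turn it stayed above that of all probes. In muscle tissue, fewer cells of a type and less RNA per cell cannot be told apart.

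Most fitted differences were small. For 32 of 37 members the 95% interval of the change lay within a 2-fold difference in either direction, beside 65.5% of all probes. The members were brighter than most probes, at a median brightness percentile of 77.6, and these shares were not compared at equal brightness. The 5 whose interval reached past 2-fold were Sars2, Gspt2, Eif4e, Eif4ebp2 and Eif2ak1. A fitted change past 1.5-fold was found in 3 members, Sars2, Gspt2 and Eif4e, and in 16.7% of all probes. The levels of stimulated and contralateral muscle did not overlap for 2 members, Eif3a and Sars2, beside 3.33% of all probes. Members were higher in all 4 mice in 4 cases, Eif3a, Eif2ak2, Eif2s3x and Eif4e3 (8.57% of all probes), and lower in all 4 mice in 8 cases (16.8% of all probes).

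**Figure D1:**
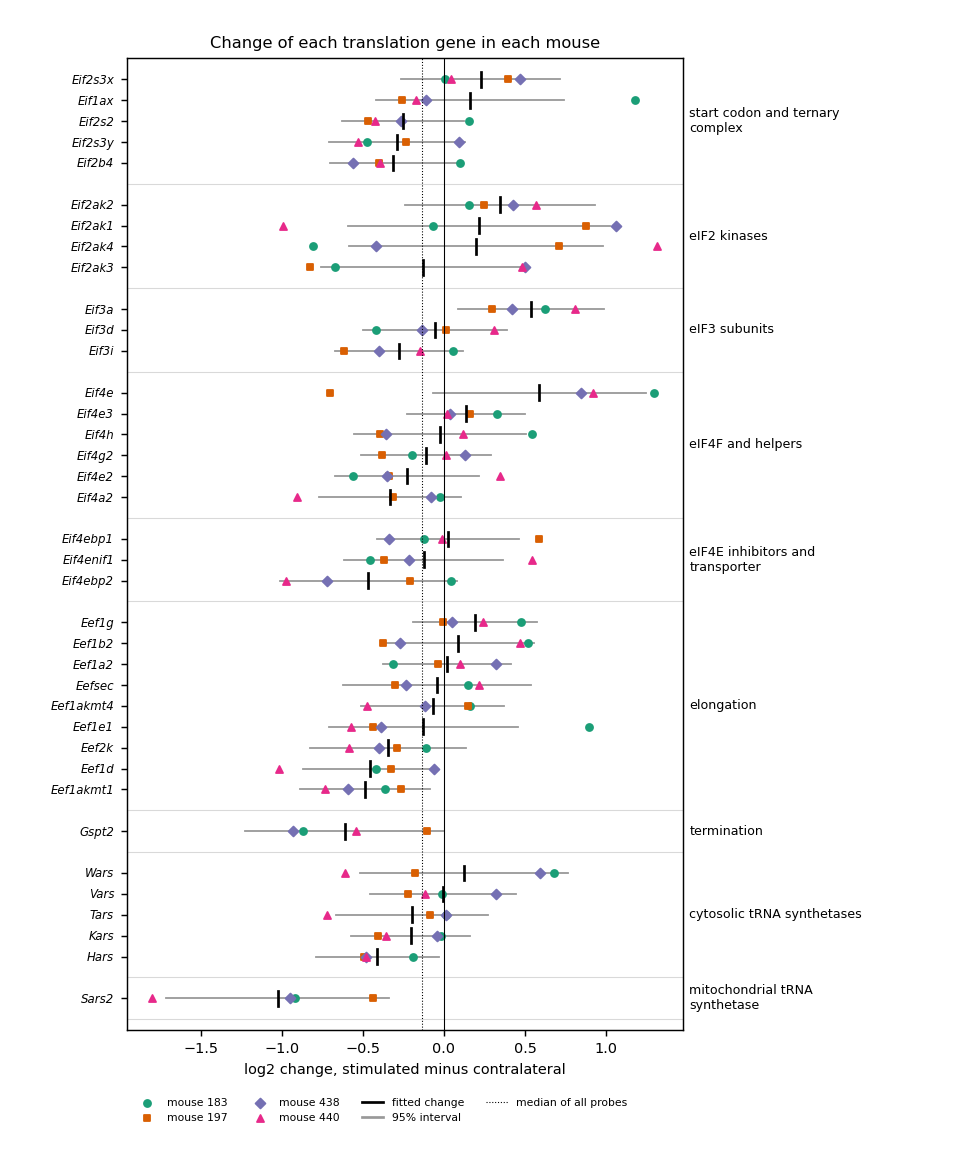
Log2 change (stimulated minus contralateral) of the 37 translation genes by role; each point is 1 of 4 mice, the black tick is the limma fit, the grey line its 95% interval and the dotted line the median of all tested probes, -0.14. Fitted changes lie between -1.03 for Sars2 and 0.59 for Eif4e, and the 4 mice fall on both sides of 0 for most genes.

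The tissue label was checked first. All 9 fast fibre markers with complete values, among them Ckm, Tnni2 and Pvalb, were at or above the 99.4th percentile of probe brightness. Their summed intensity was 8057 to 16360 in contralateral and 5468 to 10174 in stimulated muscle. Slow fibre markers (3 of 6 with complete values) summed to 7.91 to 37.0 and 16.1 to 69.7, leukocyte markers (8 of 11) to 23.5 to 117 and 26.4 to 578, and endothelial markers (5 of 5) to 16.5 to 30.0 and 14.1 to 32.7. Satellite cell markers (3 of 4) summed to 9.75 to 24.9 and 17.8 to 51.3, and the few adipocyte (1 of 5), Schwann cell (1 of 4) and fibroblast (2 of 4) markers overlapped between the groups. The T cell gene Cd3e and the endothelial cadherin Cdh5 stayed under 0.5 on all 8 arrays. With mouse as a block, the median fitted log2 change was -0.49 for fast fibre, 1.04 for slow fibre, 0.34 for leukocyte and -0.26 for endothelial markers. For satellite cell, adipocyte, Schwann cell and fibroblast markers it was 0.62, 0.66, 0.52 and -0.003. No marker in these lists passed the test, and the part of other cells in the values below was not tested.

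Start-site selection and the ternary complex were represented by 5 genes, of which 0 passed, with a median log2 change of -0.25. Eif2s2, the beta subunit of eIF2, read 102, 90.9, 155 and 191 intensity units in the contralateral muscles of mice 183, 197, 438 and 440, and 114, 65.6, 129 and 142 in the stimulated ones. Stimulated muscle was lower in 3 of 4 mice and the groups overlapped (log2 change -0.25 ± 0.17, moderated SE, adjusted p 0.478). Eif2b4, a subunit of the exchange factor that recharges eIF2 with GTP, stood at -0.31 ± 0.17. Its contralateral level in mouse 438, 72.2, stood apart from the other 3 (35.3, 37.0 and 33.4). Eif1ax, which helps the scanning ribosome find the start codon, read 3.45 in the contralateral and 7.82 in the stimulated muscle of mouse 183 but was lower in the stimulated muscle of the other 3 mice, with a fit of 0.16 ± 0.26.

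The gamma subunit of eIF2 is encoded in the mouse on the X chromosome by Eif2s3x and on the Y by Eif2s3y. Eif2s3x read 1.10, 0.83, 0.65 and 0.73 in contralateral and 1.10, 1.09, 0.91 and 0.75 in stimulated muscle, higher in 4 of 4 mice by a log2 change of 0.23 ± 0.22. That change was only 0.004 and 0.04 in mice 183 and 440, and 0.39 and 0.47 in mice 197 and 438. Eif2s3y read 9.90, 8.07, 9.50 and 12.7 against 7.11, 6.85, 10.1 and 8.78, lower in 3 of 4 mice by -0.29 ± 0.19. Neither passed, at adjusted p 0.617 and 0.465, and the difference between the 2 genes was not tested.

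The kinases that phosphorylate eIF2 respond to different stresses. All 4 were on the array and 0 passed, with a median change of 0.21. Eif2ak2 (PKR, activated by double-stranded RNA) was the only 1 of them higher in 4 of 4 mice, at 0.35 ± 0.26, but was dim at 0.13 to 0.34 intensity units on all arrays; its change was 0.64 after either rescaling and 0.14 with the higher floor, without passing. Eif2ak1, the heme-regulated kinase, moved by 0.87 and 1.06 in mice 197 and 438 and by -0.07 and -0.995 in mice 183 and 440. It was also dim, at 0.12 to 0.52 intensity units, and its fit of 0.22 was 0.05 with the higher floor. Eif2ak4 (GCN2, which senses uncharged tRNA) moved by 0.71 and 1.32 in mice 197 and 440 and by -0.81 and -0.42 in mice 183 and 438.

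Eif2ak3 encodes PERK, the eIF2 kinase of the endoplasmic reticulum. It read 2.91, 2.29, 1.51 and 1.77 in contralateral and 1.83, 1.29, 2.14 and 2.47 in stimulated muscle. Its level was lower in the stimulated muscle of mice 183 and 197 and higher in that of mice 438 and 440. The fit over all mice was -0.13 ± 0.28. The arrays of these 2 pairs of mice differ in which probes lack a value, and no source used here says whether they were run together. The difference between the pairs was 1.24 on the log2 scale (unadjusted p 0.0173, adjusted p 0.989), and Eif2ak3 was the 1 member of 37 under unadjusted p 0.05 in that interaction, beside 3.07% of all probes. Within mice 183 and 197 its change was -0.75 and within mice 438 and 440 it was 0.49, neither of which passed.

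Among subunits of eIF3, the scaffold that joins the small subunit to the mRNA, 0 of 3 passed. Eif3a, its largest subunit, read 1.64, 1.91, 2.30 and 1.64 in contralateral muscle and 2.53, 2.34, 3.08 and 2.87 in stimulated muscle. All 4 stimulated muscles lay above all 4 contralateral muscles, by a 1.45-fold mean difference (0.54 ± 0.20, unadjusted p 0.0239, adjusted p 0.254). Eif3a ranged from 0.45 to 0.62 over 12 other settings of the processing and passed in none. Eif3i (-0.28 ± 0.17) was lower in 3 of 4 mice, and Eif3d (-0.06 ± 0.20) was higher in 2 mice and lower in 2. These subunits act in 1 complex, and the differences between their changes were not tested.

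Cap recognition held the highest fitted change of the members. Eif4e, the cap-binding protein, read 35.6, 87.5, 31.4 and 31.9 intensity units in the contralateral muscles of mice 183, 197, 438 and 440, and 87.3, 53.7, 56.3 and 60.3 in the stimulated ones. Stimulated muscle was higher in 3 mice and lower in mouse 197, whose unstimulated muscle stood apart from the other 3 and read as high as the highest stimulated muscle. The log2 change was 0.59 ± 0.29 over all mice (adjusted p 0.36) and 1.02 ± 0.21 without mouse 197 (adjusted p 0.0993), so the gene did not pass with or without that animal. Eif4e also lay higher after quantile normalization (0.65) and cyclic loess (0.72), again without passing.

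The upstream sequence of Eif4e is shown because the gene is a known target of the transcription factor Myc in cultured cells, and Myc was among the genes measured beside it. These are the 250 bases before 1 of its annotated starts, chr3:138527018-138527267 on the plus strand of GRCm38.p6, from RefSeq, with capitals marking the E-box CACGTG, the hexamer that Myc and related factors can bind.
Eif4e: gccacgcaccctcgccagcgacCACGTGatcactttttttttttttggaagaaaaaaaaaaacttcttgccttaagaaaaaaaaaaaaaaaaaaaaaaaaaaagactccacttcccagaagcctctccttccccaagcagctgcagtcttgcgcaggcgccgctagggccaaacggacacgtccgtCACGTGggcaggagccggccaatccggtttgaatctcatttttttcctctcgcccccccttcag
The hexamer begins at positions -228 and -64 relative to that start, and reads the same on both strands. A promoter window (250 bases before to 50 after a start) was given for 26 of the 37 members, 35 windows in all. An E-box was found in 6 of them, those of Eif4e, Eif4h, Eef2k, Tars, Eef1akmt4 and Eif3a, and in 7.15% of all 32851 windows; 0.594% of all windows held at least 2. The log2 changes of these 6 genes ran from -0.35 for Eef2k to 0.59 for Eif4e. None of them passed, and a link between match and change was not tested. Myc itself had changes of 1.81, 1.44, 0.20 and 3.44 in mice 183, 197, 438 and 440, where Eif4e had 1.29, -0.70, 0.84 and 0.92.

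The other 5 genes of the cap-binding group lay on both sides of the median of all probes. Eif4a2, an RNA helicase of the cap complex, was lower in 4 of 4 mice, at 36.7, 36.1, 26.1 and 25.3 in contralateral and 36.1, 29.0, 24.7 and 13.5 in stimulated muscle. Most of that difference came from mouse 440, and the fit was -0.33 ± 0.19, or -0.14 without that mouse. The eIF4E relatives Eif4e2 (-0.23 ± 0.20) and Eif4e3 (0.13 ± 0.16) had opposite signs. Eif4g2, a scaffold that lacks the eIF4E site, and Eif4h, a cofactor of the helicase, stood at -0.11 ± 0.18 and -0.02 ± 0.24.

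**Figure D2:**
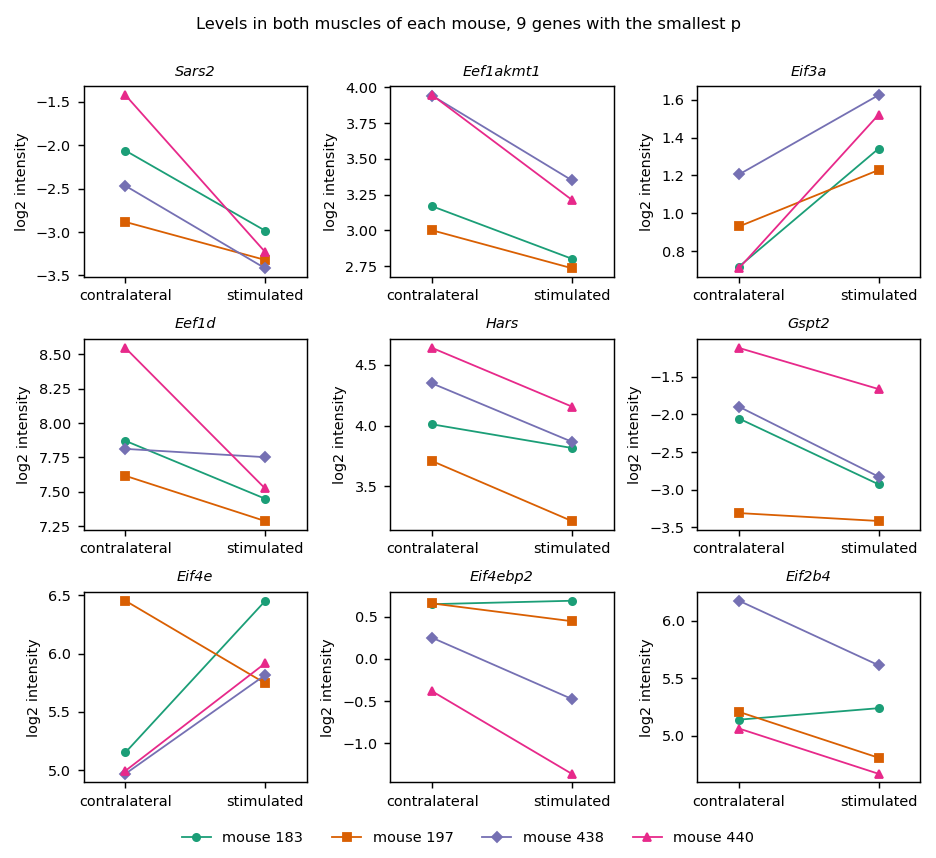
Log2 intensity in the contralateral and stimulated muscle of each of 4 mice for the 9 translation genes with the smallest p; each line joins the muscles of 1 mouse, and each panel has its own scale. Sars2, Eef1akmt1, Eef1d, Hars and Gspt2 slope down in all 4 mice, Eif3a slopes up in all 4, and for Eif4e mouse 197 runs opposite to the other 3.

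Among the proteins that bind eIF4E outside the cap complex, 0 of 3 passed. Eif4ebp1, the 4E-binding protein under control of the growth kinase mTORC1, read 28.0, 12.1, 29.6 and 22.3 in contralateral and 25.7, 18.1, 23.4 and 22.1 in stimulated muscle. Its level was higher in mouse 197 alone, and the fit was 0.03 ± 0.20 with a 95% interval from -0.41 to 0.47. Eif4ebp2, its relative, differed little in mice 183 and 197 (0.04 and -0.21) and more in mice 438 and 440 (-0.72 and -0.98), for a fit of -0.47 ± 0.24 (adjusted p 0.372). Eif4enif1, which carries eIF4E into the nucleus, was lower in 3 mice and higher in mouse 440, at -0.12 ± 0.22.

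Elongation was covered by 9 genes, including the kinase Eef2k and the methyltransferases Eef1akmt1 and Eef1akmt4, which modify eEF1A and enter the rule by their names. None of the 9 passed, and their median change was -0.07. Eef1a2, the eEF1A form of adult muscle and neurons that delivers aminoacyl-tRNA, read 21.6, 42.4, 26.2 and 17.5 in contralateral and 17.3, 41.2, 32.7 and 18.8 in stimulated muscle. Its level differed more between mice than between legs, and the fitted change was 0.02 ± 0.18 with a 95% interval from -0.38 to 0.41.

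The subunits of the complex that recharges eEF1A with GTP had fitted changes of both signs, and differences between them were not tested. Eef1d read 234, 196, 225 and 374 in contralateral and 175, 156, 216 and 184 in stimulated muscle, lower in 4 of 4 mice. The difference was -0.46 ± 0.18 (adjusted p 0.285), with most of its size in mouse 440 at -1.02, and -0.27 without that mouse. It was -0.29 after quantile normalization and -0.27 after cyclic loess. Eef1g was higher in 3 of 4 mice at 0.19 ± 0.17, and Eef1b2 was higher in 2 and lower in 2, at 0.09 ± 0.21.

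Eef2k, the calcium- and calmodulin-dependent kinase that slows elongation by phosphorylating eEF2, read 1.27, 1.22, 1.25 and 0.72 in contralateral and 1.18, 1.00, 0.95 and 0.48 in stimulated muscle. It was lower in 4 of 4 mice, by less than the spread between animals (-0.35 ± 0.21, adjusted p 0.443). Eef1akmt1 had the smallest p of the group, with 8.99, 8.01, 15.4 and 15.4 in contralateral and 6.98, 6.66, 10.2 and 9.28 in stimulated muscle. Its change was -0.49 ± 0.18 (adjusted p 0.247), and the levels of mice 438 and 440 exceeded those of mice 183 and 197 in both legs. Eef1akmt4 (-0.07 ± 0.20) was near 0. Eef1e1, a scaffold protein of the multi-synthetase complex, and Eefsec, the elongation factor for selenocysteine, stood at -0.13 ± 0.26 and -0.04 ± 0.26. Eefsec had the opposite sign after quantile normalization and after cyclic loess.

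Termination was represented by Gspt2, a form of the release factor GTPase eRF3. It read 0.24, 0.10, 0.27 and 0.46 in contralateral and 0.13, 0.09, 0.14 and 0.32 in stimulated muscle, where the value of mouse 197 lay under the floor of 0.0937 used before taking log2. Lower in 4 of 4 mice, it did not pass (-0.61 ± 0.27, adjusted p 0.329), and the groups overlapped. The change was -0.30 with the floor at the 20th percentile, -0.34 after cyclic loess and -0.40 after quantile normalization.

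Of 5 cytosolic tRNA synthetases 0 passed, with a median change of -0.20. Hars, which charges histidine tRNA, read 16.1, 13.1, 20.3 and 24.9 in contralateral and 14.1, 9.29, 14.6 and 17.8 in stimulated muscle. Every mouse had the lower level in the stimulated leg, by 0.19 to 0.49 on the log2 scale, while the groups overlapped because the mice differed (-0.41 ± 0.17, adjusted p 0.291). Kars, the lysine enzyme, was lower in 4 of 4 mice, at -0.21 ± 0.16, but nearly level in mice 183 and 438. Its changes there were -0.02 and -0.04, beside -0.41 and -0.36 in mice 197 and 440. Tars, the threonine enzyme, was nearly level in 3 mice (3.46 to 3.48, 3.54 to 3.34 and 3.30 to 3.33 in mice 183, 197 and 438) and lower in mouse 440, from 3.76 to 2.28, so its fit of -0.20 was -0.02 without that mouse. Vars, for valine, stood at -0.01 ± 0.20 and was positive after cyclic loess. Wars, for tryptophan, stood at 0.12 ± 0.29.

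Cytosolic synthetase genes are known targets of ATF4, the transcription factor made when eIF2 is phosphorylated, which binds a composite C/EBP-ATF element. The element was searched as TGATGNAAN on both strands and was found in 3 of the 35 member windows, beside 3.95% of all windows. The bases before the annotated start are shown for the only synthetase among them, Tars (chr15:11399659-11399738, minus strand), and for the eIF2 subunit Eif2s3x (chrX:94212652-94212801, minus strand), both from RefSeq on GRCm38.p6, with the element in capitals as read on the opposite strand.
Tars: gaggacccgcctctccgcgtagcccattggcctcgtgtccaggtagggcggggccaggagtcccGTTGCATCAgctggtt
Eif2s3x: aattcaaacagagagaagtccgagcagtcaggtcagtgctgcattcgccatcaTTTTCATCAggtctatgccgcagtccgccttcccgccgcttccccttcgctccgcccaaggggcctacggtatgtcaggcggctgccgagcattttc
The other match lay in 1 of 3 windows given for Eef2k, not the window that held its E-box. The cyclic AMP element TGACGTCA was in 0 of the 35 windows and in 1.79% of all windows. Log2 changes of the genes with the composite element were -0.20 for Tars, 0.23 for Eif2s3x and -0.35 for Eef2k. None of them passed, and a link between element and change was not tested.

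Sars2, the mitochondrial serine tRNA synthetase, had the lowest fitted change and the smallest p of all members. It read 0.24, 0.14, 0.18 and 0.37 in contralateral and 0.13, 0.10, 0.07 and 0.11 in stimulated muscle. All 4 stimulated muscles lay below all 4 contralateral muscles, by 2.04-fold (-1.03 ± 0.31, unadjusted p 0.0079, adjusted p 0.173). The probe was among the dimmest 9.7% of those tested, its stimulated value in mouse 438 lay under the floor, and the change was -0.28 with the floor at the 20th percentile in place of the 5th. It was -0.77 without mouse 440, and -0.59 and -0.70 after quantile normalization and cyclic loess.

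**Figure D3:**
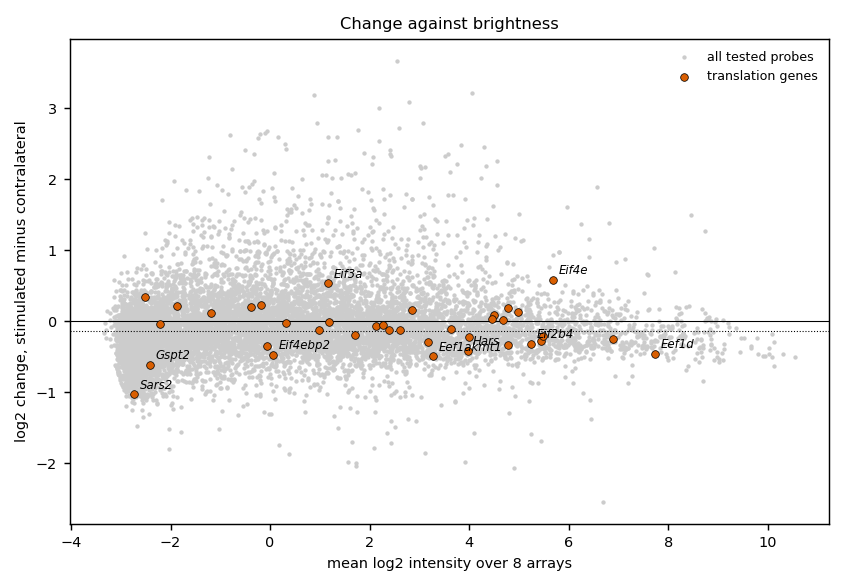
Fitted log2 change (stimulated minus contralateral) against mean log2 intensity over the 8 arrays for all 10406 tested probes (grey) and the 37 translation genes (orange), with the 9 of smallest p named; the dotted line is the median change of all probes. The translation genes stay within the cloud of all probes, and the lowest, Sars2 and Gspt2, lie at its dim end.

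Mouse by mouse, members were higher in 18 and lower in 19 cases in mouse 183, 9 and 28 in mouse 197, 14 and 23 in mouse 438, and 16 and 21 in mouse 440. Their median change was -0.01, -0.26, -0.12 and -0.15 in these mice, beside -0.01, -0.09, -0.09 and -0.30 for all tested probes. Mouse 197 lay 0.17 below its array-wide median and mouse 440 lay 0.15 above it, so the mice did not share a direction relative to the other genes.

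Genes of translation control outside the rule were read from 4 lists of 92 genes, of which 42 were measured. None passed. At unadjusted p under 0.05 there were 6 higher, beside 6.74% of all probes, and 2 lower, beside 8.49%, and the median change was -0.05, beside -0.14 for all probes. Of 7 other genes of the translation machinery, Impact had the smallest p of all 42. Its product inhibits activation of the kinase GCN2, and it read 1.13, 1.40, 0.54 and 0.44 in contralateral and 2.57, 3.58, 1.01 and 0.63 in stimulated muscle. It was higher in 4 of 4 mice while the groups overlapped between animals (0.99 ± 0.23, adjusted p 0.0854). It passed without mouse 440 (1.14, adjusted p 0.0279) and after quantile normalization (1.22, adjusted p 0.048). Pabpn1, a nuclear poly(A)-binding protein, was higher in 4 of 4 mice (0.39 ± 0.17), and Aimp1, a scaffold of the multi-synthetase complex, was lower in the 3 mice with values (-0.49 ± 0.19).

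Of 9 genes of ribosome biogenesis, Myc, a transcription factor that drives it, had a change of 1.72 ± 0.42 (adjusted p 0.105) and Nop58, a protein of the small nucleolar complexes that methylate ribosomal RNA, 1.22 ± 0.35 (adjusted p 0.156). Both passed without mouse 438, at 2.23 (adjusted p 0.0349) and 1.67 (adjusted p 0.0406). Without mouse 440 they stood lower, at 1.15 (adjusted p 0.111) and 0.91 (adjusted p 0.256). Nop58 read 1.26, 1.22, 0.72 and 1.11 in contralateral and 2.56, 4.37, 0.66 and 4.89 in stimulated muscle, so mouse 438 alone did not show the difference. Fbl, the methyltransferase of the same complexes, was higher in 4 of 4 mice (0.53 ± 0.19), with 0.05 in mouse 438.

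Of 12 genes of the integrated stress response, Ppp1r15a, the phosphatase subunit that reverses eIF2 phosphorylation, had the smallest p. It read 20.5, 15.8, 11.2 and 6.23 in contralateral and 24.2, 30.3, 17.2 and 40.3 in stimulated muscle, with the widest difference in mouse 440 (1.12 ± 0.35, adjusted p 0.182) and a fit of 0.60 without that mouse. Slc7a1, a transporter of basic amino acids, and Sqstm1, a receptor of selective autophagy, were lower in 4 of 4 mice at -0.65 ± 0.29 and -0.33 ± 0.15. After quantile normalization and cyclic loess Slc7a1 was -0.46 and -0.38, and Sqstm1 -0.16 and -0.13. Without mouse 440 Slc7a1 was -0.40. Of 14 genes of mTORC1 and S6 kinase control, 12 had negative changes, as did 64.7% of all probes; against the median of all probes 6 lay above and 8 below. Tsc2, a brake on mTORC1, was lower in 4 of 4 mice (-0.49 ± 0.18, adjusted p 0.243), as was the ribosomal protein Rps6 (-0.26 ± 0.15, but -0.10 after quantile normalization and -0.05 after cyclic loess). Akt1, a kinase that acts through Tsc2, was higher in 3 of 4 mice (0.48 ± 0.27), with 1.54 in mouse 440 and a fit of 0.13 without that mouse.

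**Figure D4:**
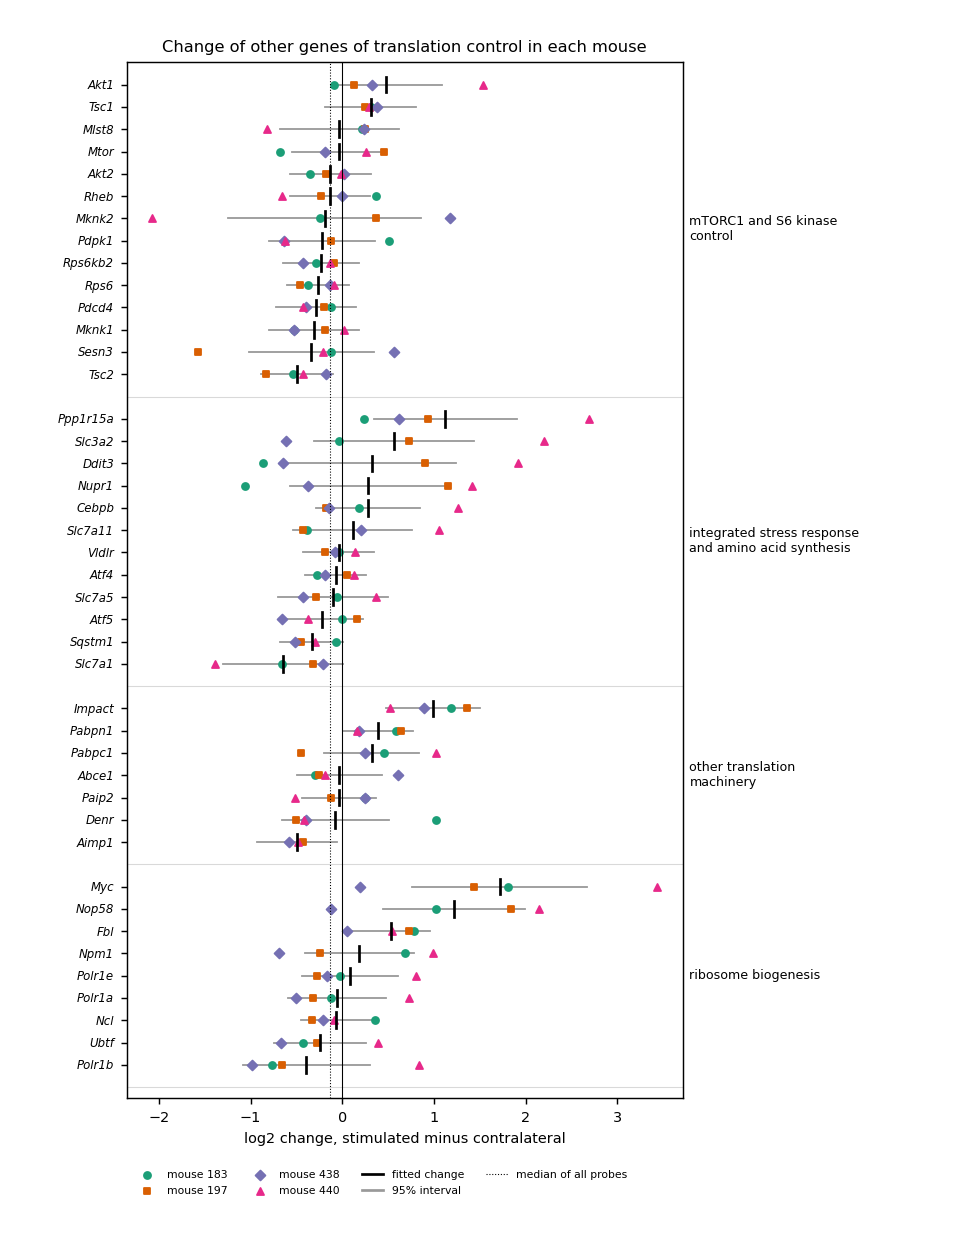
Log2 change (stimulated minus contralateral) of 42 other genes of translation control in 4 lists; points are mice, ticks limma fits, grey lines 95% intervals, and the dotted line the median of all tested probes. Myc, Nop58, Ppp1r15a and Impact have the highest fits, from 0.99 to 1.72. Slc7a1, a dim probe with a value under the floor, has the lowest, -0.65. None passed over all probes.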

How the data were processed

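The deposited table holds 1 intensity per probe and array for 10500 probes on 8 arrays, linear and already normalized by the authors. Per the labels' protocols, biotin-labelled cRNA was hybridised to CodeLink arrays with bacterial control mRNAs for scaling. How the deposited values were normalized and how background was corrected are not given in the sources used here. Array medians were 0.90 to 0.94 and 10367 to 10474 probes had a value per array, so no further scaling was applied. Probe symbols came from the platform annotation, with all 6373 found by Entrez identifier in the RefSeq table of GRCm38.p6.

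Intensities were floored at 0.0937 (the 5th percentile of positive values) and taken to log2. Probes with both values in at least 3 mice were tested, 10406 in all. The test was limma (version 3.58.1, R 4.3.3), blocked by mouse, with a variance trend on intensity, Benjamini-Hochberg over all tested probes, two-sided, threshold 0.05; ± is limma's moderated SE. The titles give both muscles of a mouse 1 number, which pairs them; deviations from group means correlated at 0.52 to 0.64 within pairs. The labels put each muscle in its group, and 4 pairs limit the precision. Named genes are the 4 smallest p and the highest level of each role group, the 3 smallest p of each companion list, and, where measured, Eef1a1, Eef1a2, Eif4e, Eif4ebp1, Eif2ak3 and Eif2ak4; other members are given to account for all 37. Members and lists were chosen with earlier results of these data known. The fit was tested on simulated data.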

Additional observations from a re-analysis of the deposited data

Results flagged for a closer look

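Dixon's ratio passed its 95% critical value for 4 samples in 6 of 74 checks on the members, each a gene in 1 group of muscles; chance gives about 1 in 20. On the log2 scale these were Eif4e in the contralateral muscle of mouse 197 (6.45, nearest 5.15), Eif2b4 in the contralateral muscle of mouse 438 (6.17, nearest 5.21) and Eef2k in the contralateral muscle of mouse 440 (-0.47, nearest 0.28). In the stimulated muscle of mouse 440 they were Eif2ak4 (0.40, nearest -0.46), Tars (1.19, nearest 1.73) and Vars (0.35, nearest 1.35).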

How the results depend on the processing

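No member passed under any of 12 alternatives, where the lowest adjusted p of a member was 0.0993 (Eif4e without mouse 197), and the members' median change stayed between -0.14 and -0.04. Without 1 mouse in turn the number of members with the other sign was 5 to 6, and after quantile normalization and cyclic loess it was 1 and 2. Alternatives on the choice of probe were not run, since each member has 1 probe. Of the 42 other genes of translation control, 0 to 2 were higher when 1 mouse was left out (Myc and Nop58 without mouse 438, Impact without mouse 440), and 1, Impact, after quantile normalization. The count of all probes, 115 higher and 24 lower, was less stable. It was 1 and 0 with no replicate block, that is without the pairing by mouse (477 at unadjusted p under 0.05), and 7 to 166 and 0 to 29 without 1 mouse, lowest without mouse 183, with 56 and 11 without mouse 197 and 10 lower without mouse 438. Raising the floor to the 20th percentile gave 0 and 0 in limma (1296 unadjusted), dropping the variance trend gave 45 and 5, and the counts were 0 and 0 within mice 183 and 197 (855 unadjusted), and 70 and 9 within mice 438 and 440. Members at unadjusted p under 0.05 numbered 1 with no replicate block and 2 to 5 without 1 mouse, and the block changed no call on a member. Sars2 and Gspt2 each had 1 of 8 values under the floor, and raising it made both changes smaller.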
